A study of Mus musculus with 27 samples.

Results

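The genes of antigen presentation and the immunoproteasome were followed in RAW264.7 cells, a mouse macrophage line, through treatment with LPS and with LPS plus TM7nox. A row of the count table was a member if its symbol began with H2- and its biotype included protein_coding, or if it was one of 20 named genes of the same pathway, from B2m to Cd1d1. This gave 57 members, 37 H2- genes and the 20 named ones, of 55483 genes in all. By role there were 27 class I genes (B2m included), 8 genes of peptide supply, 5 of the immunoproteasome, 12 of class II, 3 regulators, 1 lipid-presenting molecule (Cd1d1) and 1 H2- gene that presents no antigen (H2-Ke6, named Hsd17b8 in the GENCODE M39 annotation).

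The cells were cultured for 6 h with the solvent DMSO, with LPS at 1 µg/ml (labelled LPS+DMSO, called LPS here) or with the same LPS and TM7nox at 10 µM. LPS is lipopolysaccharide from bacterial cell walls, and TM7nox belongs to the tanshinone mimics, small molecules designed against the RNA-binding protein HuR. For each treatment there were 4 libraries of total RNA, 4 of RNA recovered from about 30 M cells with an antibody against HuR (RIP) and 1 of RNA recovered with control IgG, 27 libraries in all. All groups came from 1 cell line, no group was treated with TM7nox without LPS, and the IgG libraries were all replicate 3. The labels do not say whether the numbered replicates were separate cultures, so p-values measure the spread between these libraries, which may be technical.

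Class I molecules, a heavy chain paired with beta-2-microglobulin, show peptides from the inside of the cell to CD8 T cells. The proteasome cuts the peptides, TAP carries them into the endoplasmic reticulum, and chaperones there load them. In macrophages, interferon and bacterial products induce a special proteasome whose catalytic subunits Psmb8, Psmb9 and Psmb10 replace Psmb5, Psmb6 and Psmb7, and Nlrc5 is the transactivator of class I genes as Ciita is of class II genes. HuR, encoded by Elavl1, binds U-rich and AU-rich stretches, mostly in 3′ UTRs.

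RNA libraries held 2.73 to 28.3 M counts, RIP libraries 19.8 to 41.4 M and IgG libraries 8.87 to 24.5 M, and the members took 0.598% to 1.37% of them. RNA DMSO replicate 1 was the shallowest. Of 8 macrophage markers, 7 exceeded 1 CPM in all RNA libraries (CPM is the count scaled to a common library size, with TMM over the 27 libraries). Summed over the list, their level lay between 4990 and 6090 CPM with DMSO, between 4620 and 6580 with LPS and between 3100 and 5790 with LPS+TM7nox. The T cell, fibroblast and epithelial lists each summed to less than 1 CPM in every RNA library, with Epcam and Krt8 at 0 counts. The dendritic cell list lay between 4.85 and 18 CPM with DMSO, 11.5 and 27.9 with LPS, and 12 and 27.2 with LPS+TM7nox, and the B cell list between 0 and 0.36, 1.83 and 4.03, and 1.66 and 4.53 CPM. The part of these markers in the results was not tested. In bulk RNA of this kind, fewer cells with a transcript and less of it per cell cannot be told apart.

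The H2- genes, Tap1, Tap2, Tapbp, Psmb8 and Psmb9 lie on chromosome 17, in and beside the major histocompatibility complex. On GRCm39, with gene bounds from GENCODE M39, H2-K1 is at chr17:34214987-34219321, minus strand, and H2-D1 at chr17:35481691-35486475, plus strand. Tap1 (chr17:34405996-34416199, plus strand) and Psmb9 (chr17:34400960-34406738, minus strand) overlap head to head. B2m is at chr2:121977957-121983594, plus strand, Canx at chr11:50183939-50216529, minus strand, and Nlrc5 at chr8:95160984-95253900, plus strand. Whether counting used the strand is not given in the sources used here, so reads in the overlap of Tap1 and Psmb9, as in those of H2-T22, H2-T23 and H2-T24 with A930015D03Rik, could have gone to either gene. RAW264.7 comes from a BALB/c mouse, which carries another H2 haplotype than the C57BL/6 reference genome, and the class I genes are near copies of each other. The levels of single H2- class I genes are therefore uncertain.

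To show what the members share at their start sites, promoter windows of 250 bases before to 50 after each start were taken from RefSeq (build GRCm38.p6), which held 45 of the 57 members and 27 of the 34 tested with RIP and RNA together. The interferon-stimulated response element core was searched on both strands as GAAANNGAA and, in a form added after the sequences had been seen, as GAANNGAAA. GAAANNGAA was in 5 of the 27 windows (18.5%), against 9.8% of all 27025 genes in the table. GAANNGAAA, chosen on these sequences, was in 9 (33.3%) against 8.7%, and one or the other in 13 (48.1%) against 16.8%, so the last 2 contrasts are not independent of that choice. The 5 windows below are those of the light chain, the classical heavy chains H2-K1 and H2-D1, a non-classical heavy chain with a large rise, and the transporter with the largest one. Capitals mark the response element core, and Tap1 has none.
B2m, chr2:122147437-122147736, plus strand: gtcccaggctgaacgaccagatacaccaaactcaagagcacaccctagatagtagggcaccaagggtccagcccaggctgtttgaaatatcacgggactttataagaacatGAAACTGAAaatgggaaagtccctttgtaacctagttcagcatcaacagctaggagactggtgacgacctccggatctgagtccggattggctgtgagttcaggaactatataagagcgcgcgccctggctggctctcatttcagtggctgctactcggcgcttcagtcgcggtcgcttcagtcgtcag
H2-K1, chr17:34000298-34000597, minus strand: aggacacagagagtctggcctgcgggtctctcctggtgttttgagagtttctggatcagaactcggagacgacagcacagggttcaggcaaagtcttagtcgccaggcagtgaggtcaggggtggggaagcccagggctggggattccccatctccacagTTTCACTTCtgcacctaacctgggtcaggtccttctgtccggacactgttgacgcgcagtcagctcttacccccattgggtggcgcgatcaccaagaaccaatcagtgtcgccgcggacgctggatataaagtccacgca
H2-D1, chr17:35262844-35263143, plus strand: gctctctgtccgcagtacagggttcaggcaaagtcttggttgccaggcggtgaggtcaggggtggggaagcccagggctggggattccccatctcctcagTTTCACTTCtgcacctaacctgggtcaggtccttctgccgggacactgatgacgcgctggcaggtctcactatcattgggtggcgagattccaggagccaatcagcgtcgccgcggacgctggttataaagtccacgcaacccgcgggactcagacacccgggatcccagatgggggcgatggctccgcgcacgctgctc
H2-T22, chr17:36042693-36042992, minus strand: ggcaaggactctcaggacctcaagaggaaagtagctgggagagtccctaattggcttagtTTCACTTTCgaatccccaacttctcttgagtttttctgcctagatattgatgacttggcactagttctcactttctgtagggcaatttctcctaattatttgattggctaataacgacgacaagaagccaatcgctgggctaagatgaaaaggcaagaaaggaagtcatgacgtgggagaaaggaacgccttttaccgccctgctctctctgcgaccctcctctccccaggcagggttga
Tap1, chr17:34187306-34187605, plus strand: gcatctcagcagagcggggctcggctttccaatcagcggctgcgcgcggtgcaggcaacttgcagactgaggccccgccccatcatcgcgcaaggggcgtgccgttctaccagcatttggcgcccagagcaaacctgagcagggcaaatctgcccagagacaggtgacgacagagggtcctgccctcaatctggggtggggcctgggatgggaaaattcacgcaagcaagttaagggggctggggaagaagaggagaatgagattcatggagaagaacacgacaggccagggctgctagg

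The form GAANNGAAA was in the windows of H2-K1, H2-D1, H2-Q4, H2-Q6, H2-Q7, H2-Q10, H2-M2, H2-M3 and Psme1, and GAAANNGAA in those of B2m, H2-T22, H2-T23, Erap1 and Psme1. The heavy chain genes descend from common copies, so letters they share are not separate observations. The Y box letters ATTGG, bound by NF-Y in class I and class II promoters, were in 20 of the 27 windows (74.1%) against 41.1% of all genes. The X2 box core TGACG was in 14 (51.9%) against 23.0%, and the gamma-activated site core TTCNNNGAA in 3 (11.1%) against 9.6%. Some of these letters overlap in 1 window, and a match is a description of the letters and not a site. The window of Tap1 holds ATTGG and TGACG, and so does that of Psmb9, which covers much of the same bases on the opposite strand.

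To show what HuR could meet in the transcripts, the U-richest 30 bases of the annotated 3′ UTR are given for the 2 members with the highest mean level in RIP, for the pair H2-K1 and H2-D1, and for 3 members that were low in RIP. They are on GRCm39, written as DNA, and capitals mark runs of at least 3 T.
Canx, chr11:50186782-50186811, minus strand: TTTTTTTTTTTccTTTTccTTTTTTTTTTT
Tapbp, chr17:34147239-34147268, plus strand: TTTTTTTTTTTaaggTTTTTTTgTTTgTTT
H2-K1, chr17:34215036-34215065, minus strand: TTTTgTTTgTTTgTTTgattgaTTTgTTTT
H2-D1, chr17:35486411-35486440, plus strand: ggTTTTTTTgTTTgTTTgattgaTTTTTTT
Psme1, chr14:55820822-55820851, plus strand: ataTTTTTaaatataaTTTaTTTTTaTTTT
Tap1, chr17:34416143-34416172, plus strand: aTTTgggtgttctatgggtgTTTgataTTT
Psmb9, chr17:34401025-34401054, minus strand: ttccattcTTTTgtaaaaataaacTTTatt

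T made up 26 of the 30 bases in Canx and 24 in Tapbp, against 16 in Tap1 and 15 in Psmb9. H2-K1 and H2-D1 had 22 each and Psme1 had 20. The window of Rfx5, not printed, had 19, fewer than that of Psme1. Yet Rfx5 was higher in RIP than in RNA under TMM (log2 0.73 in DMSO, 0.48 in LPS and 0.94 in LPS+TM7nox). Over the 33 members tested that have a 3′ UTR of at least 50 bases, its median length was 477 bases, against 1354 over 10995 coding genes tested. The pentamer ATTTA was in 17 of the 33 (51.5%) against 73.5% of all. The UTRs of Psmb8, Psmb9 and Psmb10 were 188, 238 and 55 bases long, while that of Canx had 1815 bases and 6 copies of ATTTA.

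Without LPS, the cells held class I transcripts and almost none of the class II chains or Ciita. Per kilobase of exon, the mean level in RNA from DMSO was 144 CPM per kb for B2m, 98.4 for H2-D1 and 18.9 for H2-K1. The chaperones Calr (327 CPM per kb), Pdia3 (144) and Canx (93.8), which fold glycoproteins of all kinds, were also high. Tap1 (4.46), Psmb9 (1.93) and Nlrc5 (1.67) were lower on the same scale. The class II invariant chain Cd74 stood at 28.4 CPM per kb and the thiol reductase Ifi30 at 114. The class II chains were almost absent: H2-Aa had 0, 6, 0 and 0 counts in the DMSO RNA libraries, 3, 0, 0 and 0 in LPS and 0, 2, 0 and 0 in LPS+TM7nox. The class II transactivator Ciita had 0, 0, 1 and 1 counts in DMSO, 2, 3, 0 and 2 in LPS and 0, 2, 1 and 0 in LPS+TM7nox. Cd1d1, which presents lipids, had 0, 0, 2 and 0 counts in DMSO, 0, 0, 0 and 0 in LPS and 10, 3, 0 and 2 in LPS+TM7nox. Ciita and Cd1d1 were sparse in RIP too, with at most 11 and 6 counts in a library, against at most 3 and 10 in RNA. H2-Aa had 0 counts in all RIP libraries. Over the 27 libraries, 2 members (H2-M1 and H2-M11) had no count, and a count of 0 over the RNA libraries allows up to 0.0118 CPM before TMM scaling (3 counts, counting error only).

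The response of the pathway to LPS was read from total RNA, LPS against DMSO. Of the 57 members, 33 passed the filter on low counts, and 23 of these rose and 0 fell. Among the 12369 genes tested, 20.2% were higher and 21.7% lower. The rise took in 11 of 14 class I genes, 5 of 8 of peptide supply, 5 of 5 of the immunoproteasome, both regulators tested and 0 of 4 class II genes. The median log2 fold change was 1.35 over the 33 members and -0.04 over all genes tested. Calls are at an edgeR quasi-likelihood adjusted p under 0.05, and each ± on a log2 fold change is its SE.

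**Figure D1:**
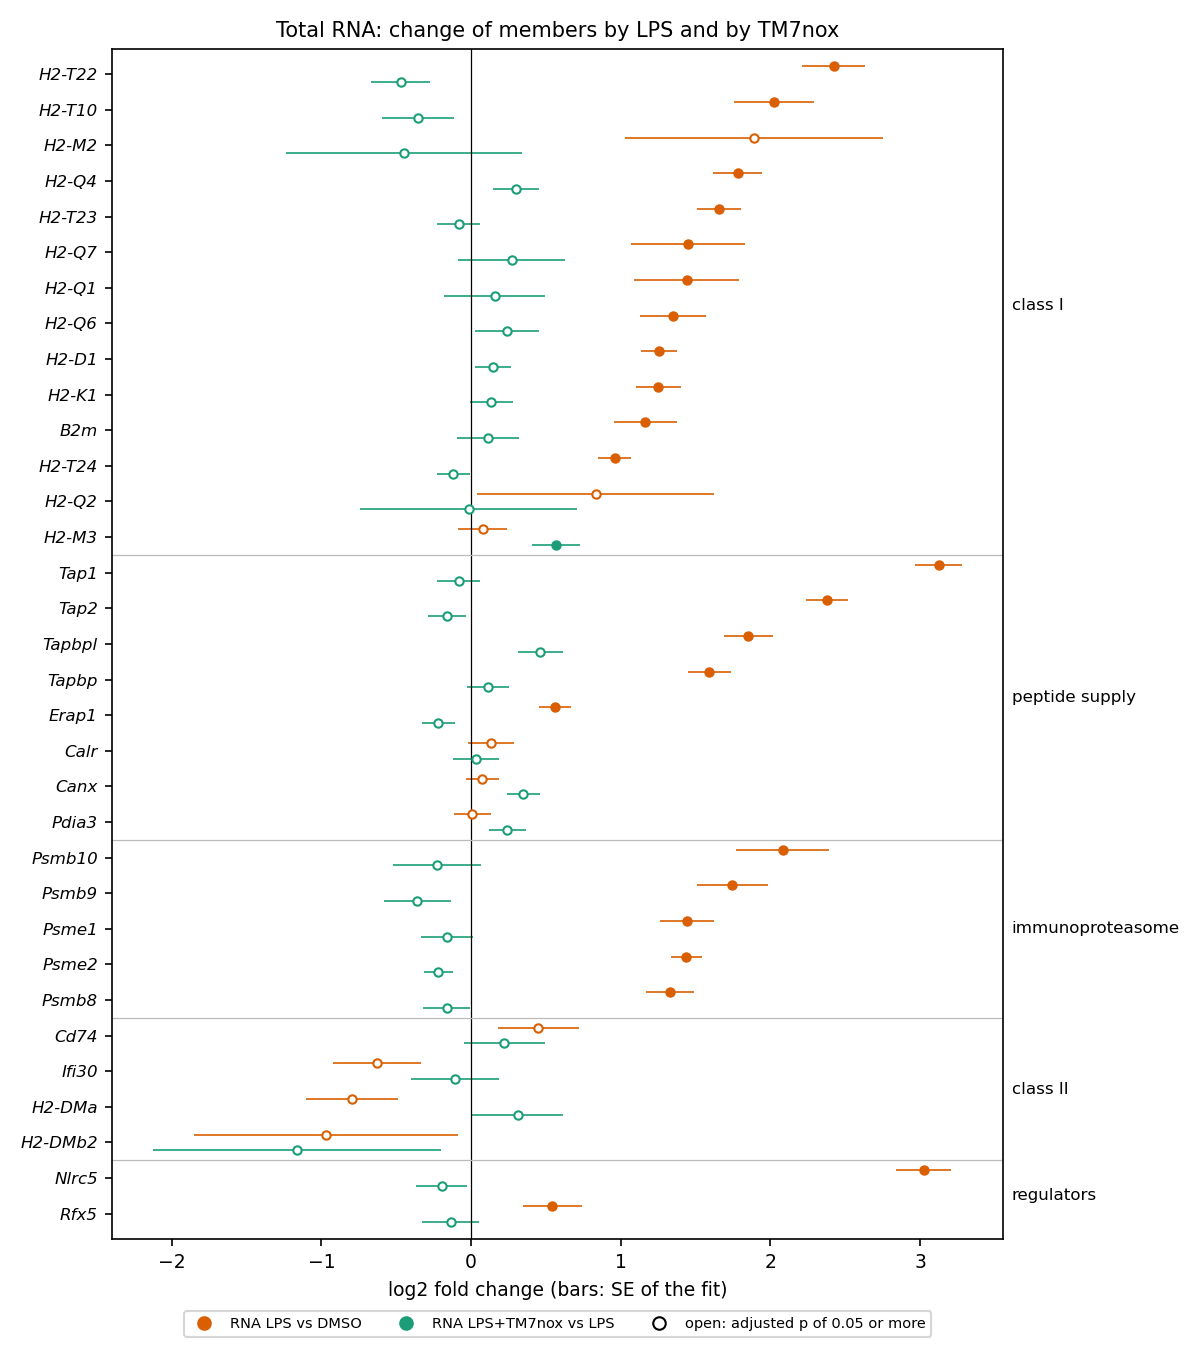
Log2 fold changes of the 33 members tested in total RNA (x axis; bars, SE of the fit with 4 libraries a group), by role, for LPS against DMSO and for LPS+TM7nox against LPS. Filled points passed an adjusted p of 0.05: 23 members rose with LPS, and H2-M3 alone passed between LPS+TM7nox and LPS.

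Tap1, a subunit of the peptide transporter, had 30.2, 28.8, 24.1 and 24.0 CPM in the DMSO libraries, 261, 226, 242 and 237 in LPS and 172, 212, 269 and 261 in LPS+TM7nox. Its log2 fold change with LPS was 3.12 ± 0.16 (adjusted p = 4.41e-09). The lowest LPS library was far above the highest DMSO library, while the LPS+TM7nox libraries spanned the LPS range. Tap2, the other subunit, rose by 2.38 ± 0.14 on the log2 scale. The bridging chaperone Tapbp (tapasin) went from 143, 91.0, 130.1 and 111 CPM to 394, 339, 374 and 380.5 (1.59 ± 0.14, adjusted p = 8.73e-07), and its relative Tapbpl from 3.21, 3.50, 3.64 and 3.13 to 15.4, 12.1, 10.6 and 12.6 (1.85 ± 0.16). The peptide-trimming enzyme Erap1 had 50.9, 59.8, 66.3 and 55.4 CPM in DMSO, 90.7, 98.9, 83.8 and 83.2 in LPS and 69.7, 82.6, 80.1 and 74.7 in LPS+TM7nox, a smaller rise of 0.56 ± 0.11 with no overlap between DMSO and LPS. The general chaperones did not pass: 0.13 ± 0.15 for Calr, 0.07 ± 0.11 for Canx and 0.01 ± 0.12 for Pdia3. Calr had 1408, 1239, 1099 and 1241 CPM in DMSO, 1708, 1302, 1248 and 1438 in LPS and 1677, 1327, 1417 and 1399 in LPS+TM7nox, and the groups overlapped.

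Nlrc5, the class I transactivator, had 10.1, 16.7, 18.6 and 11.4 CPM in DMSO, 113, 124, 128 and 122 in LPS and 80.1, 121, 117 and 108 in LPS+TM7nox. It rose by 3.02 ± 0.18 (adjusted p = 2.06e-08), and every library with LPS was above every one without. Rfx5, which binds the X box of class I and class II promoters, rose by 0.54 ± 0.20 (adjusted p = 0.0387). This call was lost without any 1 of the 4 DMSO libraries (adjusted p 0.0509 to 0.114) or without LPS replicate 1 (0.35, adjusted p = 0.129). Of 11 factors known to bind such promoters, 4 rose and 1 fell with LPS, beside 20.2% and 21.7% of all genes, and their median was 0.30. Irf1, which acts on interferon-stimulated genes, rose by 2.00 ± 0.26, while Rfxank and Rfxap, the partners of Rfx5, did not pass (0.43 and -0.19).

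Among the class I genes, the non-classical heavy chain H2-T22 rose most of those above 5 CPM, from 24.2, 14.6, 12.5 and 12.9 CPM in DMSO to 91.1, 94.4, 82.3 and 79.4 in LPS, with 54.1, 78.5, 58.3 and 60 in LPS+TM7nox (2.42 ± 0.21, adjusted p = 6.33e-07). H2-K1 had 58.4, 73.2, 46.3 and 62.7 CPM in DMSO, 148, 149, 148 and 151 in LPS and 160.4, 149.7, 144 and 199 in LPS+TM7nox. H2-D1 had 319, 289, 274 and 296 CPM in DMSO, 777, 678, 718 and 751 in LPS and 853, 704, 812 and 866 in LPS+TM7nox. These 2 classical heavy chains rose alike, by 1.25 ± 0.15 and 1.25 ± 0.12, so that the count ratio of H2-K1 to H2-D1 was 0.204 ± 0.0372 in DMSO, 0.205 ± 0.0122 in LPS and 0.202 ± 0.0238 with TM7nox added (SD, n = 4). B2m had 206, 411, 297 and 298 CPM in DMSO, 478, 831, 780 and 738 in LPS and 579.6, 905, 757 and 809 in LPS+TM7nox, with replicate 1 the lowest of each group, and rose by 1.16 ± 0.21. The other class I genes called rose by 0.96 (H2-T24) to 2.02 (H2-T10). H2-M3, which presents formylated peptides of bacteria and mitochondria, did not pass with LPS (0.08 ± 0.16).

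The inducible catalytic subunits rose together with the activator subunits that open the proteasome. Psmb8 had 34.5, 44.0, 35.1 and 47.5 CPM in DMSO, 82.8, 102, 115 and 123 in LPS and 69.3, 94.7, 99.3 and 113 in LPS+TM7nox. Psmb9 had 6.42, 6.28, 6.85 and 9.72 CPM in DMSO, 16.7, 28.1, 29.2 and 28.8 in LPS and 11.5, 23.2, 22.8 and 22.5 in LPS+TM7nox, and Psmb10 5.99, 18.0, 23.0 and 22.1 CPM in DMSO, 54.0, 81.2, 86.4 and 91.7 in LPS and 38.1, 78.0, 76.9 and 74.3 in LPS+TM7nox. In none of the 3 did DMSO overlap LPS, and the log2 fold changes were 1.33 ± 0.16, 1.75 ± 0.24 and 2.08 ± 0.31. Replicate 1 was the lowest for all 3 genes in LPS and in LPS+TM7nox. The activator subunits Psme1 and Psme2 rose by 1.44 ± 0.18 and 1.44 ± 0.10. Psme1 had 92.7, 95, 99.4 and 132 CPM in DMSO, 239.6, 278, 302 and 364 in LPS and 172, 287, 310.4 and 288 in LPS+TM7nox, and Psme2 had 85.2, 71.5, 83.5 and 90.2 CPM in DMSO, 223, 225, 235 and 246 in LPS and 183, 199, 214 and 204 in LPS+TM7nox. Of the 17 shared and constitutive proteasome genes, 11 rose and 0 fell, where 20.2% of all genes were higher and 21.7% lower. Their median was 0.55, against 1.44 for the immunoproteasome genes, a difference that was not tested. The constitutive catalytic subunits Psmb5, Psmb6 and Psmb7 rose by 0.67 ± 0.20, 0.69 ± 0.15 and 0.56 ± 0.15.

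Within each library, the counts of an inducible subunit over its constitutive counterpart need no scaling. Psmb9 over Psmb6 was 0.0749 ± 0.00936 in DMSO, 0.158 ± 0.0353 in LPS and 0.0926 ± 0.0316 with TM7nox added (SD, n = 4). Psmb10 over Psmb7 was 0.627 ± 0.374, 1.67 ± 0.301 and 1.15 ± 0.296, and Psmb8 over Psmb5 3.91 ± 0.99, 5.83 ± 0.532 and 3.94 ± 0.587, in the same order. The mean of each ratio was highest in LPS and lower with TM7nox. A ratio moves with either of its genes. Between LPS+TM7nox and LPS, the median log2 fold change in RNA was 0.33 over the 17 shared and constitutive proteasome genes. It was -0.22 over the 5 immunoproteasome genes, 0 of which were called. The libraries of LPS (0.126 to 0.208) and LPS+TM7nox (0.0539 to 0.131) overlapped for Psmb9 over Psmb6, and so did those for Psmb10 over Psmb7 (1.24 to 1.95 against 0.712 to 1.36), while for Psmb8 over Psmb5 they did not (5.18 to 6.47 against 3.16 to 4.46). These ratios were not tested, and they compare counts and not levels per length.

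Of the class II genes tested, 0 of 4 passed with LPS in this fit. Cd74, the invariant chain, had 51.4, 52.3, 88.2 and 94.0 CPM in DMSO, 65, 75.4, 138 and 128 in LPS and 98.6, 80.3, 146 and 149 in LPS+TM7nox (0.45 ± 0.27, adjusted p = 0.211). The DMSO and LPS libraries overlapped, and replicates 3 and 4 were above 1 and 2 in each RNA group. With the replicate number as a block, Cd74 rose by 0.44 (adjusted p = 0.00162), and 3 class II genes fell: Ifi30 (-0.67, adjusted p = 0.00219) and the peptide-editing chains H2-DMa (-0.77, adjusted p = 0.0263) and H2-DMb2 (-1.59, adjusted p = 0.0423). The low-level class I gene H2-M2 also passed with the block (1.90, adjusted p = 0.0094). The block called 6481 of 12369 genes. Of the endosomal proteases and class II turnover genes, 2 of 5 tested rose in the fit without the block, where 20.2% of all genes did. Ctss, which cleaves the invariant chain, did not pass (0.50 ± 0.20).

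**Figure D2:**
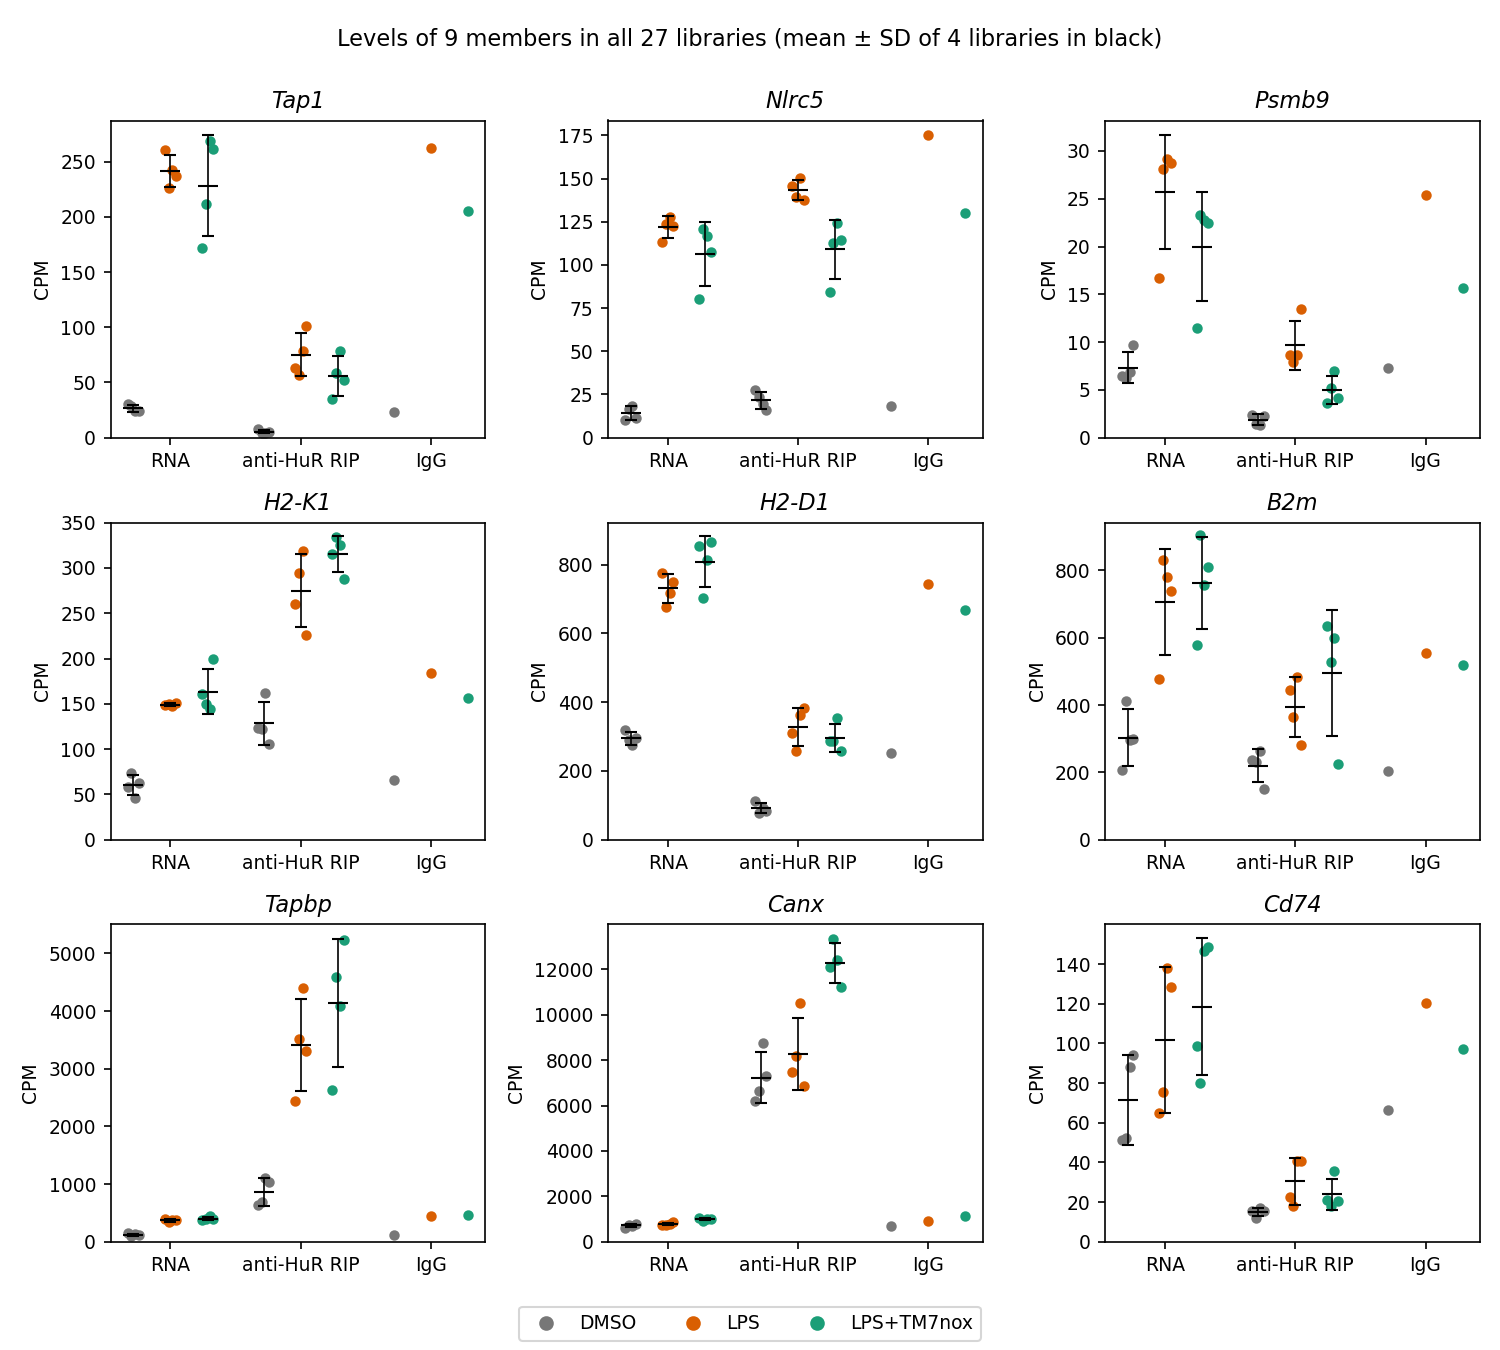
CPM (y axis, TMM-scaled, from 0) of 9 members in all 27 libraries, in total RNA, anti-HuR RIP and IgG; each point is a library, coloured by treatment, with the mean and SD of 4 libraries in black. Tap1, Nlrc5 and Psmb9 are higher in every library with LPS than in any without it, within each assay. Tapbp and Canx in RIP stand far above RNA and IgG.

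RNA from LPS+TM7nox and from LPS was compared to ask what TM7nox did to the response. Only H2-M3 was called, 1 higher and 0 lower of 33 members, against 7.37% higher and 6.4% lower of all genes. H2-M3 had 17.9, 20.4, 17.5 and 21.7 CPM in LPS and 28.1, 25.6, 29.8 and 31.2 in LPS+TM7nox, with no overlap, and its log2 fold change was 0.57 ± 0.16 (adjusted p = 0.0311). In DMSO it had 16.9, 24.0, 14.2 and 15.3 CPM. The call was lost without LPS replicate 1, 2 or 3 or without LPS+TM7nox replicate 1, 3 or 4, at adjusted p-values of 0.0563 to 0.0925. The count of members called was 4 without DMSO replicate 1, and 0 without LPS replicate 2 or 3 or LPS+TM7nox replicate 1, 3 or 4. With the replicate block 5 members passed: H2-M3, Canx (0.35, adjusted p = 0.00991), Pdia3 (0.24, 0.0399) and Tapbpl (0.47, 0.0229) rose, and H2-T22 fell (-0.47, 0.0423). The block called 3091 of 12369 genes, a larger share than the 5 of 33 members. Tap1 (-0.08 ± 0.14), Nlrc5 (-0.20 ± 0.17), H2-K1 (0.13 ± 0.14) and B2m (0.11 ± 0.21) did not pass. The 5 immunoproteasome genes had log2 fold changes of -0.36 to -0.16, and 0 of the 5 passed.

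The factor Irf1 fell, with a log2 fold change of -0.77 ± 0.24 (adjusted p = 0.048). Of the 17 shared and constitutive proteasome genes, 2 rose and 2 fell, where 7.37% and 6.4% of all genes did. Their median log2 fold change was 0.33, against 0 over all genes tested. Among 8 macrophage markers, 0 rose and 3 fell with TM7nox, and their part in the results was not tested. Against DMSO, LPS+TM7nox had 24 members higher and 0 lower of 33, where 23.7% of all genes were higher and 23.6% lower. Tap1 (3.04 ± 0.16), Nlrc5 (2.83 ± 0.18) and Tapbpl (2.31 ± 0.17) had the largest log2 fold changes above 5 CPM. With the replicate block 27 were higher and 2 lower, Ifi30 (-0.87, adjusted p = 0.000332) and H2-DMb2 (-2.35, 0.00777), and Cd74 was among those higher (0.68, 4.45e-05). The block called 7173 of 12369 genes here. This comparison and the one of LPS with DMSO share the DMSO libraries. Of the 17 shared and constitutive proteasome genes, 16 were higher and 0 lower in LPS+TM7nox than in DMSO, with a median of 0.77.

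RNA recovered with anti-HuR was set against total RNA of the same treatment to ask which members were enriched. In DMSO, 8 of 34 members tested were higher in RIP and 19 lower, where 37% of 14311 genes were higher and 33.4% lower. In LPS the counts were 9 and 21 (all genes 32.9% and 30.8%), and in LPS+TM7nox 10 and 20 (35.2% and 34.8%). With the replicate block they were 9 and 19 in DMSO, 9 and 21 in LPS and 10 and 22 in LPS+TM7nox. The block called 10719, 9867 and 10626 of 14311 genes, in the same order. H2-Q10, counted as higher in each treatment and against IgG, passed the filter on low counts only through the RIP libraries, and H2-M2, counted as lower in LPS, only through the RNA libraries. Both had to differ, so their calls support nothing. All 5 immunoproteasome genes were lower in every treatment, with medians of -1.87, -1.35 and -1.94. Canx and Tapbp were the 2 highest of the members above 5 CPM. TMM places the typical gene near 0, and each ratio is read against it. With library totals in place of TMM the median of all genes moved to -0.72, -1.06 and -1.07, and the members split 4 higher to 24 lower, 3 to 25 and 3 to 24.

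**Figure D3:**
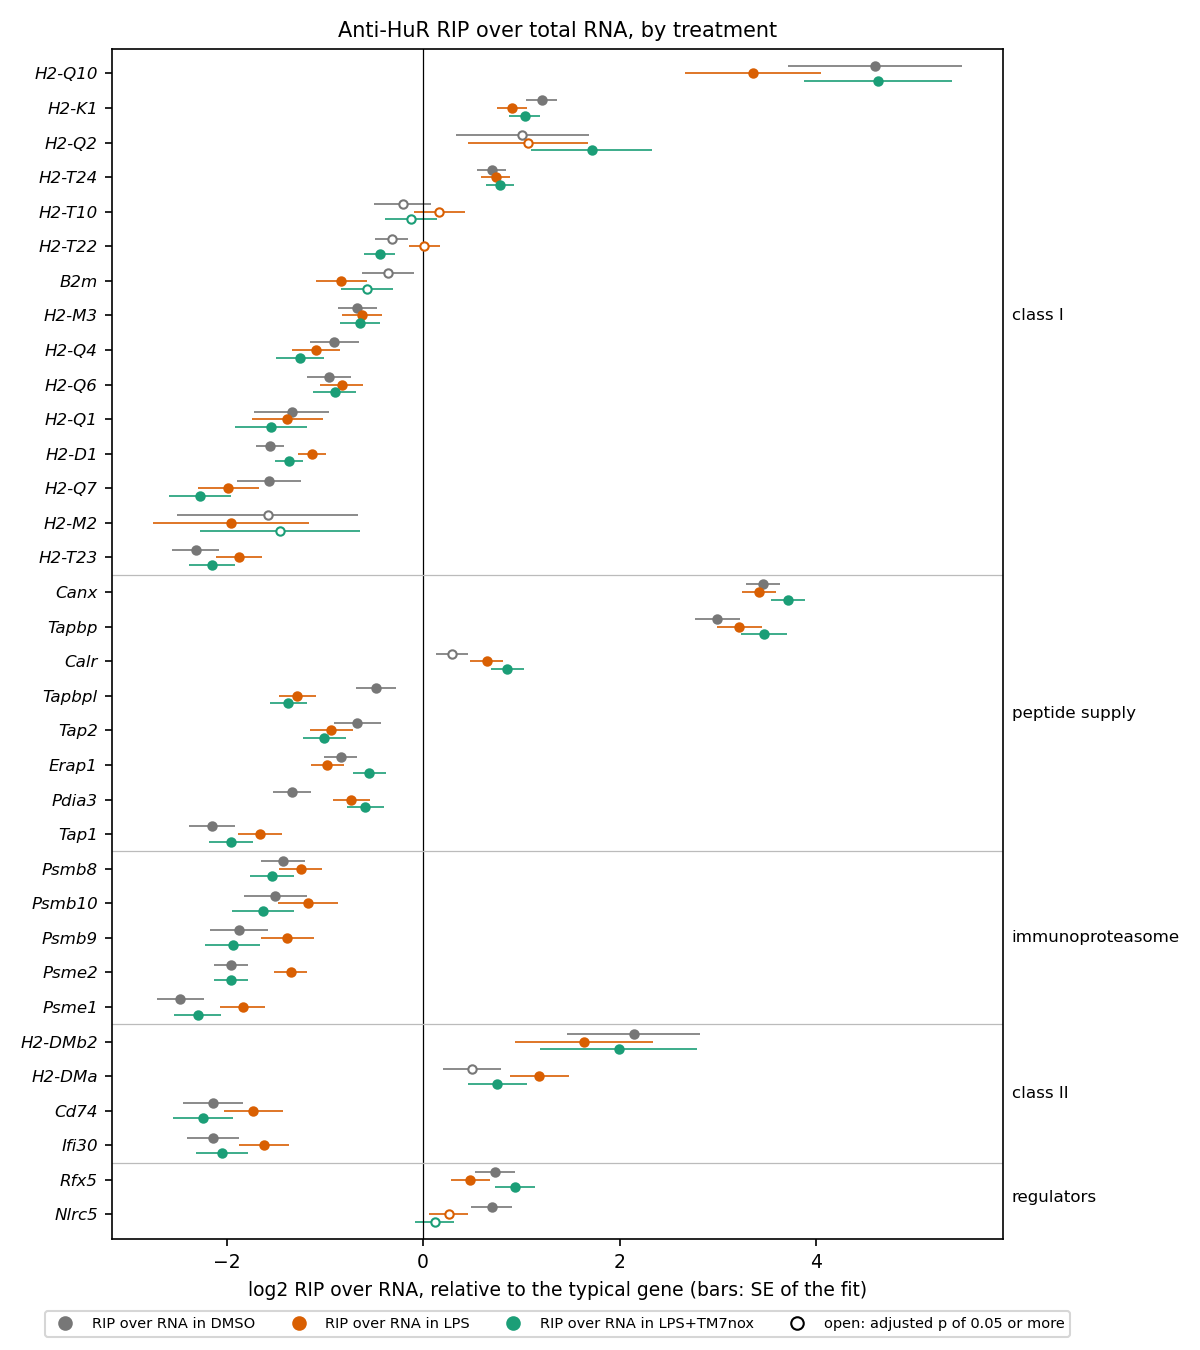
Log2 of anti-HuR RIP over total RNA (x axis, relative to the typical gene under TMM; bars, SE of the fit with 4 libraries of each assay) for the members tested, by role and treatment. Canx and Tapbp lie near 3 and above in all treatments, all 5 immunoproteasome genes lie below 0, and H2-K1 and H2-D1 lie on opposite sides of 0. With library totals in place of TMM, H2-K1 in LPS is at -0.11, and H2-T24 and Rfx5 are below 0 in all treatments.

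Canx, a lectin chaperone of newly made glycoproteins, had 622, 733, 706 and 794 CPM in DMSO RNA and 6199, 6659, 8760 and 7289 in DMSO RIP. It had 756, 748, 768 and 851 in LPS RNA and 7466, 8173, 10500 and 6881 in LPS RIP, and with TM7nox 1030, 917, 1010 and 1010 in RNA and 12120, 13340, 12400 and 11220 in RIP. RIP over RNA was 3.46 ± 0.17, 3.42 ± 0.17 and 3.71 ± 0.17 on the log2 scale, with no overlap in any treatment. Its soluble relative Calr, which shares its sugar-binding fold, had 1400, 1238, 1727 and 1238 CPM in DMSO RIP, 1746, 2006, 3132 and 1919 in LPS RIP and 1949, 2836, 3013 and 2174 in LPS+TM7nox RIP. Calr stayed closer to RNA, with 0.30 ± 0.16 (not called), 0.65 ± 0.17 and 0.86 ± 0.17, and on library totals its value was -0.51 in DMSO, then called lower (adjusted p = 0.0127), and -0.38 in LPS and -0.16 in LPS+TM7nox, neither called. The ratio of Canx to Calr counts within a library, which no scaling can move, was 0.579 ± 0.0943, 0.556 ± 0.0774 and 0.685 ± 0.0489 in RNA and 5.19 ± 0.61, 3.82 ± 0.426 and 5.05 ± 0.888 in RIP (SD, n = 4). In the IgG libraries it was 0.557, 0.533 and 0.617.

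Tapbp had 628, 686, 1102 and 1029 CPM in DMSO RIP, 2445, 3522, 4395 and 3310 in LPS RIP and 2639, 4599, 4087 and 5235 in LPS+TM7nox RIP, and 379.5, 386, 443 and 399.7 in LPS+TM7nox RNA. RIP over RNA was 2.99 ± 0.23, 3.22 ± 0.23 and 3.47 ± 0.23. Tap1, its partner in the peptide-loading complex, stood at the other end. It had 7.90, 4.65, 4.46 and 4.88 CPM in DMSO RIP, 63.5, 57.0, 78.4 and 101 in LPS RIP and 34.9, 58.5, 78.9 and 52.2 in LPS+TM7nox RIP, each group below its RNA group, with log2 ratios of -2.15 ± 0.23, -1.66 ± 0.22 and -1.96 ± 0.23. Counts of Tapbp over Tap1 were 4.48 ± 0.946, 1.54 ± 0.0471 and 1.80 ± 0.296 in RNA, and 171 ± 73.8, 47.3 ± 13.8 and 76.6 ± 19.9 in RIP (SD, n = 4).

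The 2 classical heavy chains, which rose alike in RNA, parted in RIP. H2-K1 had 123, 122, 162 and 106 CPM in DMSO RIP, 260.1, 295, 319 and 226 in LPS RIP and 316, 334, 326 and 288 in LPS+TM7nox RIP, above RNA in each treatment (1.21 ± 0.16, 0.90 ± 0.15 and 1.03 ± 0.15). H2-D1 had 111, 77.8, 92.6 and 82.7 CPM in DMSO, 310.3, 258, 362 and 382 in LPS and 287, 288, 355 and 258 in LPS+TM7nox, below RNA in each (-1.56 ± 0.14, -1.13 ± 0.14 and -1.37 ± 0.14). On library totals the value of H2-K1 was -0.11 in LPS and 0.04 in LPS+TM7nox, neither called. The ratio of their counts, free of scaling, was 1.43 ± 0.287, 0.864 ± 0.226 and 1.07 ± 0.106 in RIP (SD, n = 4), against 0.202 to 0.205 in RNA and 0.263, 0.248 and 0.234 in IgG. No RIP library overlapped an RNA or IgG library in this ratio. As shown above, the U-richest 30 bases of the 2 UTRs hold 22 T each. With the other haplotype in these cells, which gene such reads come from is uncertain.

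**Figure D4:**
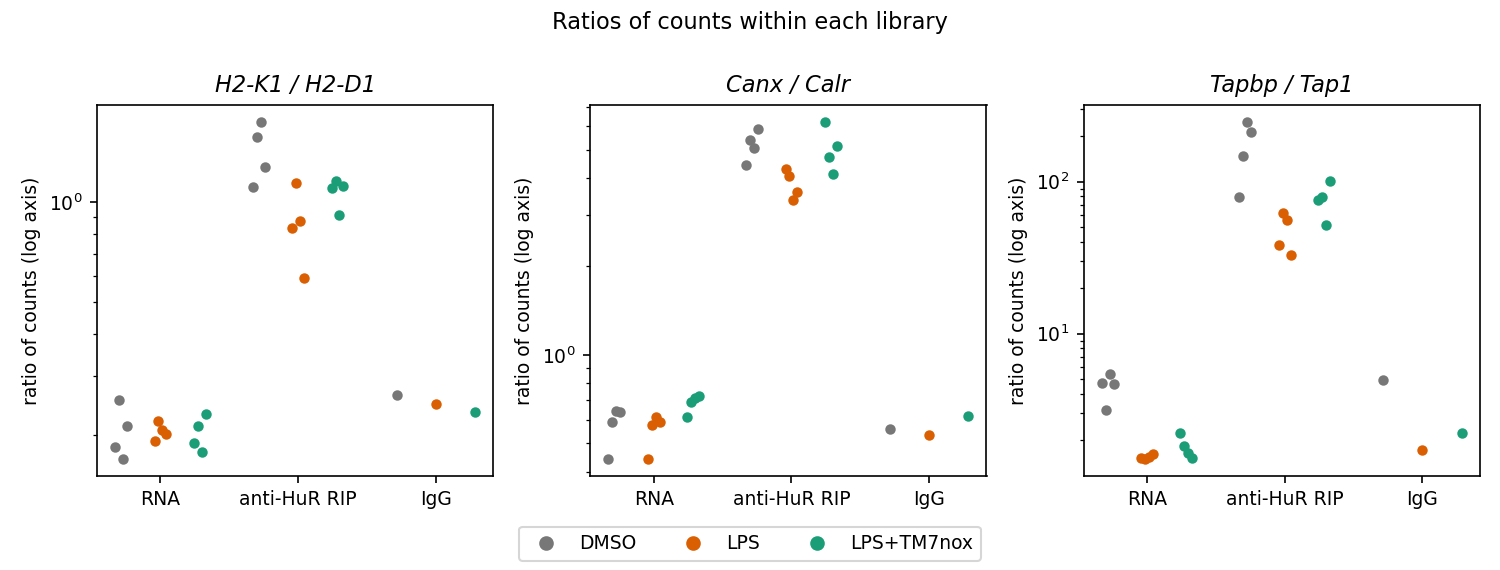
Ratios of counts within each library (y axis, log scale) for H2-K1 over H2-D1, Canx over Calr and Tapbp over Tap1, in total RNA, RIP and IgG; each point is a library, coloured by treatment. The RIP libraries lie apart from RNA and IgG in all 3 ratios, for example 0.592 to 1.75 for H2-K1 over H2-D1 in RIP against 0.169 to 0.253 in RNA.

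Among the other class I genes, H2-T24 was higher in RIP in every treatment under TMM (0.70, 0.74 and 0.78), and on library totals its values were -0.11, -0.27 and -0.24, none called. H2-T23, the Qa-1 chain seen by natural killer cells, was among the lowest (-2.32 ± 0.24, -1.87 ± 0.23 and -2.15 ± 0.23). H2-T23 had 24.0, 23.1, 31.6 and 32.8 CPM in DMSO RNA and 4.84, 4.16, 5.02 and 6.70 in DMSO RIP, and 86.3, 76.2, 102 and 101 in LPS RNA and 16.9, 15.9, 29.7 and 35.8 in LPS RIP. H2-Q10 had 1, 1, 1 and 3 counts in DMSO RNA and 46, 27, 25 and 55 in DMSO RIP. B2m had 236, 231, 264 and 150.3 CPM in DMSO RIP, 443, 366, 483 and 282 in LPS RIP and 636, 527, 599 and 224 in LPS+TM7nox RIP, and passed below RNA in LPS (-0.83 ± 0.26) and not in DMSO (-0.36 ± 0.26) or LPS+TM7nox (-0.57 ± 0.26), where the replicate block called it lower (-0.58, adjusted p = 0.0252). Erap1 had 30.3, 29.9, 35.2 and 24.7 CPM in DMSO, 47.2, 47.4, 48.1 and 35.6 in LPS and 53.4, 62.3, 59.4 and 26.9 in LPS+TM7nox in RIP, below RNA in all treatments (-0.84 ± 0.17, -0.98 ± 0.17 and -0.55 ± 0.17), the last not called with RLE size factors (adjusted p = 0.0817) or DESeq2 (0.0779).

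The immunoproteasome transcripts were low in RIP. Psme1 had 17.8, 12.3, 21.3 and 18.4 CPM in DMSO, 72.8, 59.4, 89.7 and 104 in LPS and 43.3, 47.4, 79.3 and 37.9 in LPS+TM7nox, with ratios of -2.47 ± 0.24, -1.84 ± 0.23 and -2.29 ± 0.24, the lowest of all members in DMSO. Psmb8 had 17.9, 10.4, 13.2 and 13.8 CPM in DMSO, 44.0, 27.6, 48.8 and 54.9 in LPS and 26.5, 26.9, 42.9 and 27.3 in LPS+TM7nox (-1.43, -1.25 and -1.54). The shared and constitutive proteasome genes lay in the same range, with 2 higher and 14 lower of 17 in each treatment and medians of -1.87, -1.57 and -1.78. Of the class II members, Cd74 had 15.6, 12.2, 17.1 and 15.5 CPM in DMSO RIP, 22.5, 18.1, 40.8 and 40.5 in LPS RIP and 21.2, 18.1, 35.6 and 20.7 in LPS+TM7nox RIP, and was lower than RNA (-2.14 ± 0.31, -1.73 ± 0.30 and -2.24 ± 0.31). Ifi30 was lower as well (-2.14, -1.62 and -2.05), whereas H2-DMb2, at 3.70 CPM or less, was higher (2.14 ± 0.68, 1.63 ± 0.70 and 1.99 ± 0.80). On library totals H2-DMb2 was not called in any treatment, and its call in LPS was lost without LPS replicate 2, 3 or 4 of RNA, or without DMSO replicate 2 or 3, LPS replicate 1 or 2 or any 1 LPS+TM7nox replicate of RIP (adjusted p 0.0505 to 0.192). In LPS+TM7nox it was lost without LPS+TM7nox replicate 1, 3 or 4 of RNA or replicate 2 of RIP (0.0511 to 0.123).

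Nlrc5 had 27.5, 23.8, 19.3 and 15.8 CPM in DMSO RIP, 146, 139, 151 and 138 in LPS RIP and 84.4, 112, 124 and 115 in LPS+TM7nox RIP. It passed above RNA in DMSO (0.70 ± 0.21, -0.07 on library totals) and not in LPS (0.26 ± 0.20) or LPS+TM7nox (0.12 ± 0.20), where on library totals it was called lower (-0.74 and -0.88, adjusted p = 0.000568 and 8.89e-05). Rfx5 was higher in RIP in every treatment under TMM (0.73 ± 0.20, 0.48 ± 0.20 and 0.94 ± 0.20). On library totals its values were -0.04, -0.54 and -0.10, and that in LPS was then called lower (adjusted p = 0.0309). The call of Rfx5 in LPS (adjusted p = 0.04) was also lost without the filter on low counts (0.219) or without LPS replicate 2, 3 or 4 of RNA, LPS replicate 1, 3 or 4 of RIP or LPS+TM7nox replicate 2 of RIP (0.0504 to 0.12). Of the 11 promoter factors, 7 were higher and 2 lower in DMSO, 6 and 3 in LPS, and 7 and 2 in LPS+TM7nox, beside shares of all genes of 37% and 33.4%, 32.9% and 30.8%, and 35.2% and 34.8%.

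Over the 33 members with a 3′ UTR, RIP over RNA went with the U share of the UTR at a Spearman rho of 0.36 in DMSO, 0.35 in LPS and 0.40 in LPS+TM7nox. The 33 include H2-Q10 and H2-M2, whose ratios had to differ because of the filter, as said above, and rho was not computed without them. Over 10995 coding genes rho was 0.27, 0.26 and 0.32. With the length of the UTR, rho in DMSO was 0.24 over the 33 members and 0.37 over the 10995 genes. These correlations are across genes that share the same libraries, and several H2- genes are near copies, so they are given as a description. H2-D1, with 29.3% U, and H2-K1, with 32.2%, are given beside their opposite ratios above, and Psme1 has the longest UTR of all (3196 bases) with 7 copies of ATTTA. Mitochondrially encoded genes took 12.1% to 22.4% of the counts in RNA, 0.559% to 1.86% in RIP and 5.31% to 6.13% in IgG. Their part in the ratios was not tested.

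Anti-HuR was set against control IgG with treatment as a covariate, over 12 and 3 libraries, as the measure of background. Of 34 members tested, 8 were higher and 19 lower, where 33.8% of all genes were higher and 34.2% lower. With library totals the split was 3 to 26, around a median of -1.02 for all genes. With the replicate block it was 9 to 19, beside 9761 of 14973 genes called. Canx had 704, 917 and 1111 CPM in the IgG libraries of DMSO, LPS and LPS+TM7nox, and Tapbp 116, 452 and 456. Both were within the range of the RNA libraries in DMSO and above it in LPS and LPS+TM7nox, and anti-HuR exceeded IgG by 3.33 ± 0.21 for Canx and 3 ± 0.28 for Tapbp on the log2 scale. H2-K1 had 66.1, 184 and 156 CPM in IgG (0.84 ± 0.16, and -0.20 on library totals, not called), and H2-D1 251, 744 and 668 (-1.27 ± 0.14). The lowest of those above 5 CPM were H2-T23 (-2.37 ± 0.19), Cd74 (-2.05 ± 0.19) and Psme1 (-1.97 ± 0.18), and all 5 immunoproteasome genes were lower than in IgG. In the IgG libraries of DMSO, LPS and LPS+TM7nox, Tap1 had 23.2, 262 and 206 CPM, Nlrc5 18.1, 175 and 130.3, and Psmb9 7.30, 25.3 and 15.7. The antibody is partly confounded with replicate number 3. Against replicates 3 and 4 alone the count was 10 higher and 19 lower.

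Within RIP, LPS was compared with DMSO to ask whether the RNA recovered with HuR followed the response. It did for most members: 25 were higher and 1 lower of 33, where 23.5% of 13614 genes were higher and 21.2% lower. With the replicate block 28 were higher and 1 lower, with Rfx5 (0.40, adjusted p = 0.0344), H2-Q10 (0.99, 0.0021) and H2-Q2 (1.02, 0.0122) added. The block called 8073 of 13614 genes. Tap1 (3.74 ± 0.28, adjusted p = 3.75e-08), H2-T22 (2.88 ± 0.17) and Nlrc5 (2.69 ± 0.20) led the members above 5 CPM. H2-T22 had 13.7, 9.93, 11.3 and 10.4 CPM in DMSO, 84.6, 83.5, 88.0 and 87.1 in LPS and 35.2, 51.1, 47.5 and 40.9 in LPS+TM7nox. All 5 immunoproteasome genes rose, by 1.63 (Psmb8) to 2.51 (Psmb10), with a median of 2.20. Cd74 (0.98 ± 0.26), Calr (0.62 ± 0.20) and Pdia3 (0.74 ± 0.23) passed in RIP and not in RNA in the fits without the block. With the block Cd74 passed in RNA too, as given above. The test of that difference between assays, given last, called 0 members. In RIP, Calr lost its call without DMSO replicate 1, 2 or 4, without LPS replicate 3 (0.0599 to 0.132) or without the filter on low counts (0.0804), and Pdia3 without DMSO replicate 2 or 4 or LPS replicate 3 (0.0635 to 0.0795). H2-DMb2 fell, from 3.70, 2.82, 1.53 and 1.77 CPM to 1.03, 1.68, 0.639 and 0.457 (-1.40 ± 0.46, adjusted p = 0.022), a call lost without DMSO replicate 1 (0.0729), LPS replicate 3 (0.0638) or LPS replicate 4 (0.0594). LPS+TM7nox against DMSO had 30 higher and 1 lower, with 25.1% and 23.1% of all genes, and shares the DMSO libraries. With the block 30 were higher and 2 lower there, Ifi30 having been added (-0.56, adjusted p = 0.00166), beside 8409 of 13614 genes called. In this comparison Tap1 (3.35 ± 0.28), Nlrc5 (2.35 ± 0.20) and Tapbp (2.30 ± 0.28) had the largest log2 fold changes above 5 CPM.

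**Figure D5:**
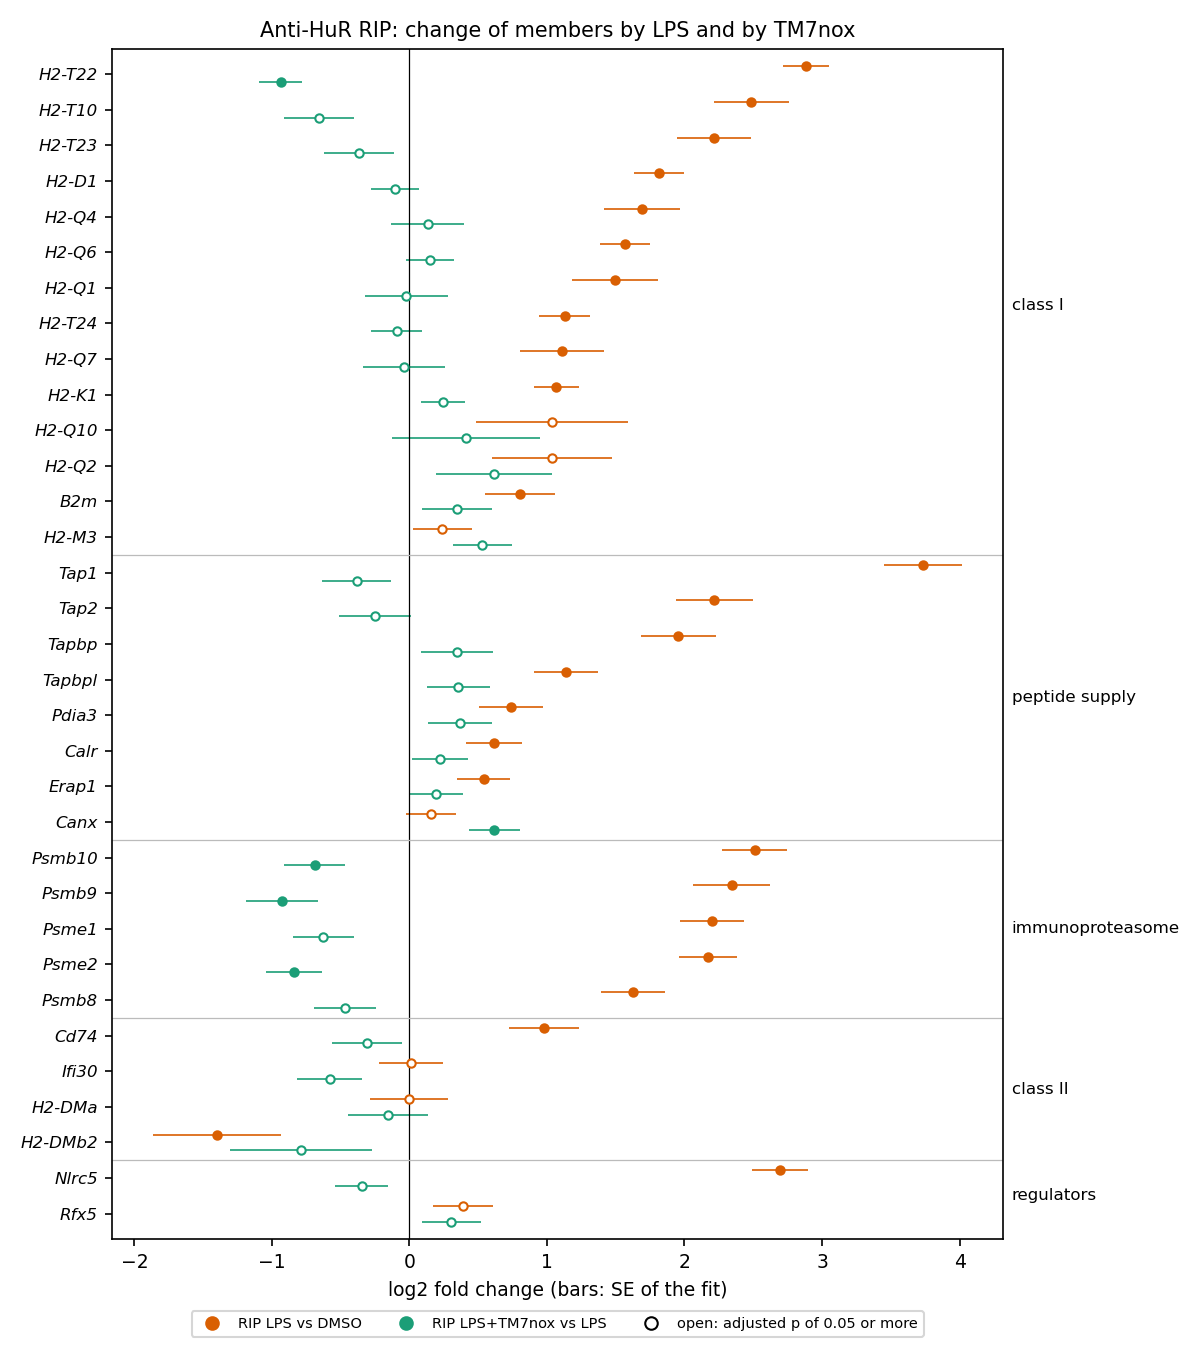
Log2 fold changes of the 33 members tested in anti-HuR RIP (x axis; bars, SE of the fit with 4 libraries a group), by role, for LPS against DMSO and LPS+TM7nox against LPS. Filled points passed an adjusted p of 0.05: with TM7nox, Canx was higher and H2-T22, Psmb9, Psme2 and Psmb10 were lower than in LPS.

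Between LPS+TM7nox and LPS, 3 of the 5 immunoproteasome transcripts and H2-T22 fell in RIP, and Canx rose. Of 33 members, 1 was higher and 4 lower, where 8.64% of all genes were higher and 7.61% lower. Members were thus called about as often as genes at large (5 of 33 beside 2212 of 13614). The median of the 5 immunoproteasome genes was -0.69, against -0.03 over all genes. H2-T22, given above for each library, had no overlap between LPS and LPS+TM7nox. Psme2 had 84.9, 65.6, 106 and 103 CPM in LPS and 44.8, 47.3, 71.2 and 34.4 in LPS+TM7nox, with 1 library overlapping, and 23.0, 15.4, 23.2 and 16.7 in DMSO. Psmb9 had 8.70, 7.87, 8.68 and 13.5 CPM in LPS, 3.62, 5.16, 7.02 and 4.17 in LPS+TM7nox and 2.39, 1.41, 1.37 and 2.31 in DMSO, with LPS above LPS+TM7nox throughout. Psmb10 had 31.6, 24.6, 32.8 and 47.5 CPM in LPS, 16.7, 17.5, 26.5 and 21.5 in LPS+TM7nox and 5.04, 4.59, 6.67 and 7.24 in DMSO, and LPS and LPS+TM7nox overlapped. The log2 fold changes were -0.94 ± 0.16 for H2-T22 (adjusted p = 0.000929), -0.93 ± 0.26 for Psmb9 (0.0245), -0.84 ± 0.20 for Psme2 (0.0105) and -0.69 ± 0.23 for Psmb10 (0.0469). Canx rose by 0.62 ± 0.18 (0.0312), with all LPS+TM7nox libraries above all LPS libraries.

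H2-T22 and Psme2 kept the call without any 1 library. Psmb9 lost it without LPS replicate 4 (-0.70, adjusted p = 0.0888) or without LPS+TM7nox replicate 1, 2 or 4 (0.0536 to 0.0634). Psmb10 lost it without LPS replicate 1, 3 or 4, LPS+TM7nox replicate 1 or 2, or DMSO replicate 1, 2 or 3 (0.0511 to 0.169), and Canx without LPS replicate 1, 2 or 4 or LPS+TM7nox replicate 2 or 4 (0.0528 to 0.0892) or without the filter on low counts (0.276). The count of members called was 2 without LPS replicate 4 or LPS+TM7nox replicate 2, and 3 without LPS replicate 1 or LPS+TM7nox replicate 4. With replicates 1 and 2 alone, and with 3 and 4 alone, H2-T22 was the 1 member called. With the replicate block 11 of 33 members passed, 3 higher and 8 lower, where 4577 of 13614 genes were called, a similar share. The members added were Psme1 (-0.62, adjusted p = 0.00475), Psmb8 (-0.44, 0.0472), Ifi30 (-0.60, 0.00252) and H2-T10 (-0.63, 0.0177), all lower, and H2-M3 (0.53, 0.0276) and Pdia3 (0.34, 0.0495), both higher. All 5 immunoproteasome genes were then among those called. Within RIP libraries, Psmb9 over Psmb6 was 0.252 ± 0.0655 in LPS and 0.104 ± 0.029 in LPS+TM7nox, Psmb10 over Psmb7 was 2.62 ± 0.337 and 1.37 ± 0.231, and Psmb8 over Psmb5 was 8.01 ± 2.41 and 4.48 ± 0.938 (SD, n = 4). The groups did not overlap in the ratios of Psmb9 and Psmb10, and did in that of Psmb8 (4.55 to 10 against 3.50 to 5.66). None was tested. The constitutive and shared proteasome genes had 0 higher and 1 lower of 17, with a median of 0.07. Marchf1, a ligase that turns over class II molecules, had 0.807 to 1.19 CPM in DMSO RIP, 8.40 to 20.4 in LPS RIP and 0.531 to 2.61 in LPS+TM7nox RIP. It had a log2 fold change of 3.72 ± 0.37 with LPS and -3.51 ± 0.38 with TM7nox in RIP and was not tested in RNA. Among the macrophage markers, 0 rose and 4 of 8 fell in this comparison.

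Whether LPS or TM7nox changed RIP relative to RNA was tested as an interaction over the 24 libraries. For LPS, 0 members of 34 were called in either direction, where 0.014% of all genes were higher and 0.028% lower, and for TM7nox 0 members, with 0.00699% higher and 0% lower. At an unadjusted p under 0.05 there were 4 members for LPS and 1 for TM7nox. DESeq2 called 0 members in both, with 5 and 2 at an unadjusted p under 0.05. The replicate block also called 0 in both, with 6 and 4 at that level. With 1 library left out, 0 were called in each fit, and 2 to 8 members for LPS and 0 to 4 for TM7nox had an unadjusted p under 0.05: 8 without LPS replicate 1 of RIP, 2 without DMSO replicate 4 of RNA, LPS replicate 2 of RNA or DMSO replicate 2 or 4 of RIP, and, for TM7nox, 4 without LPS+TM7nox replicate 1 of RNA and 0 without LPS replicate 3 or 4 of RIP. The largest member differences above 5 CPM were those of Tapbpl with LPS (-0.80 ± 0.28, adjusted p = 0.533) and of Psme2 with TM7nox (-0.61 ± 0.24, adjusted p = 0.871). For Psmb9 the RIP-specific part of the change with TM7nox was -0.56 ± 0.38, and for Canx 0.29 ± 0.22. The falls of the immunoproteasome genes in RIP were thus not shown to differ from their changes in RNA.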

How the data were processed

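The authors deposited 1 table of raw counts (whole numbers of reads per gene, not normalized, with symbols and biotypes per the file headers) for 55483 genes in 27 libraries. The submitters' processing notes name FastQC 0.11.9, STAR, HTSeq, DESeq2 and GRCm39, with no settings or strand use. Per the labels' protocols, libraries were made with a stranded SMART-Seq kit and carry no stated molecular identifiers, so PCR copies of a molecule count separately and floors cover counting error only.

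The test was that of edgeR 4.0.16 under R 4.3.3 (quasi-likelihood F test, two-sided, TMM, filterByExpr with a minimum count of 10, Benjamini-Hochberg over all genes tested, called under 0.05). The 12 RNA and the 12 RIP libraries were fitted separately, RIP over RNA and interactions over the 24 together, and anti-HuR against IgG over 15 with treatment as a covariate. The RNA, RIP and combined fits, but not that against IgG, were also run on simulated counts, and the outcome is not given here. Alternatives were DESeq2 1.42.0, RLE size factors, no filter, library totals, a replicate block, replicates 1 and 2 or 3 and 4 alone, and each library left out. Same-numbered libraries of different treatments, or of RIP and RNA in the same treatment, deviated together (correlations of 0.195 to 0.541 in all pairs). In the pair with the lowest value, replicate 3 of LPS and DMSO in RNA, LPS matched another DMSO replicate better. The numbers thus appear to pair the samples. The design was set without the block, so the main counts, SEs and figures ignore this pairing. The block is given as an alternative, and it changes several calls. No 2 replicates agreed within sampling noise (chi-square per gene of 38 to 213 over 36 pairs).

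The members, lists and named genes were chosen with earlier results of these data known. By the rule for named genes, 17 panel members are given in every library, and per comparison the 3 called members that moved furthest up and down at a mean of at least 5 CPM; others are named with their fold change. All 57 members matched GENCODE M39 by Ensembl number. Exon length is the union of annotated exons.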

Additional observations from a re-analysis of the deposited data

Results flagged for a closer look

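In 98 checks of panel members in groups of 4 libraries, 9 had 1 library far from the other 3, where chance gives about 1 in 20; no difference between treatments in RIP over RNA was called for a member. In RNA, the outlying level of Psmb9 was 9.72 CPM in DMSO replicate 4 (high), 16.7 CPM in LPS replicate 1 (low) and 11.5 CPM in LPS+TM7nox replicate 1 (low). LPS+TM7nox replicate 1 was also low for Psmb10, at 38.1 CPM, and for Psme1, at 172 CPM. In RIP, the outlying level was 7.90 CPM for Tap1 in DMSO replicate 1 (high), 13.5 CPM for Psmb9 in LPS replicate 4 (high), 35.6 CPM for Erap1 in LPS replicate 4 (low) and 42.9 CPM for Psmb8 in LPS+TM7nox replicate 3 (high).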

How the results depend on the processing

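The counts of members called stayed within 1.5 times of the reported count in the alternatives run, except those between LPS+TM7nox and LPS. In RNA that count was 1, and it was 3 with DESeq2, 5 with the replicate block, 0 in replicates 1 and 2 alone, 7 in replicates 3 and 4 alone, and 0 to 4 with 1 library left out. In RIP it was 5, and it was 11 with the block, 1 in replicates 1 and 2, 1 in replicates 3 and 4, and 2 to 6 with 1 library left out. Counts over all genes moved as well. In RNA they were 1704 of 12369, 2288 with DESeq2 and 3091 with the block. Replicates 1 and 2 gave 168 of 12468, and replicates 3 and 4 gave 3489 of 12525. In RIP they were 2212 of 13614 and 4577 with the block. There, replicates 1 and 2 gave 789 of 14119, and replicates 3 and 4 gave 1070 of 13592. In the other comparisons the block moved no count of members by over 1.5 times, the furthest being 28 members against 23 for LPS against DMSO in RNA. On library totals, without TMM, 14 called values turned: against IgG H2-K1 (-0.198), H2-T24 (-0.555) and Rfx5 (-0.238); RIP over RNA in DMSO of Nlrc5 (-0.066), H2-T24 (-0.106) and Rfx5 (-0.036), in LPS of Calr (-0.384), H2-K1 (-0.11), H2-T24 (-0.272) and Rfx5 (-0.541), and in LPS+TM7nox of Calr (-0.16), H2-DMa (-0.269), H2-T24 (-0.24) and Rfx5 (-0.098). Of the other values of called members under an alternative, 213 lost the call with the same direction and 5017 kept direction and side of the threshold. IgG in replicates 1 and 2 alone could not be fitted, because all IgG libraries are replicate 3. Depth limits H2-Aa, H2-Ab1, H2-Eb1 and Cd1d1, which were too sparse to test, and Ciita, tested against IgG only.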
